A study of Mus musculus with 9 samples.

Results

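The genes of oxidative phosphorylation were followed in mouse embryonic stem cells in which either of a pair of chromatin corepressor subunits had been lowered. Members were the protein-coding genes whose symbols begin with Nduf, Uqcr, Cox4 to Cox8, Atp5, mt-Nd, mt-Co, mt-Cytb or mt-Atp, together with Sdha to Sdhd, Cyc1 and Cycs. The rule used gene names and no measured value. It found 108 of the 37990 genes listed, of which 95 were nuclear and 13 lay on the mitochondrial genome. A further 11 matching symbols belonged to processed pseudogenes and were left out. Of the 108 members, 97 had enough reads to be tested, 90 nuclear and 7 mitochondrial. The other 11 are described by their reads.

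Total RNA was sequenced from E14 cells, an established mouse embryonic stem cell line, kept on gelatin in serum with leukaemia inhibitory factor. A stable lentiviral pLKO.1 short hairpin RNA was directed against Fam60a, against Sin3a, or against no mouse target (scrambled), with 3 libraries from biological replicates in each of the 3 groups. Every group, the scrambled control included, met virus for 24 hours, recovered for 12 hours, was selected with 2 µg/ml puromycin and was passaged before harvest. Sin3a organises a histone deacetylase complex, of which Fam60a (Sinhcaf in the annotation) is a component. Both knockdowns were partial: Sinhcaf kept 42.5% of its control level in Fam60a knockdown cells, and Sin3a kept 43.8% in Sin3a knockdown cells. Sin3a itself averaged 217 ± 9.90 CPM in Fam60a knockdown cells and 287 ± 21.9 CPM in control cells (SD, n = 3 each, log2 fold change -0.40 ± 0.11, edgeR adjusted p = 0.0964). The comparisons ask whether lowering either subunit changed the transcripts of the respiratory chain. In a bulk sample, fewer cells carrying a transcript and less transcript per cell cannot be told apart.

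Libraries held between 2607872 and 7674887 reads in genes, and the smallest, Sin3a knockdown replicate 3, stood apart from the other 8, whose totals were at least 5511453. A floor of 3 counts corresponded to 0.385 to 1.22 CPM (counts scaled to library size) and covers counting error alone. All 10 embryonic stem cell markers were detected, with a summed level of 1386 to 1568 CPM in Fam60a knockdown cells, 1584 to 1729 CPM in Sin3a knockdown cells and 1634 to 1801 CPM in control cells. All 7 primitive endoderm markers were detected too, and their summed level was 861 to 1365 CPM in Fam60a knockdown cells, 931 to 1239 CPM in Sin3a knockdown cells, and 281, 292 and 961 CPM in control replicates 1, 2 and 3. The part of the endoderm markers in the results below was not tested. Fibroblast markers summed to 14.7 to 71.4 CPM over the 9 libraries, and all 7 were detected.

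Oxidative phosphorylation takes place in the inner mitochondrial membrane. Complex I (NADH dehydrogenase) and complex II (succinate dehydrogenase) feed electrons to coenzyme Q, complex III passes them to cytochrome c, and complex IV (cytochrome c oxidase) gives them to oxygen. The proton gradient that complexes I, III and IV build drives complex V, the ATP synthase. All of these except complex II combine subunits from the nucleus and from the mitochondrial genome, so the complexes draw on transcripts made in separate compartments. Pluripotent cells rely strongly on glycolysis, and the use of oxidative phosphorylation changes as they differentiate.

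The mitochondrial genes fell into a group with many reads per library and a group with none to speak of. Counted were mt-Nd1, mt-Nd2, mt-Nd4, mt-Nd5 and mt-Nd6 (membrane subunits of complex I), mt-Cytb (the cytochrome b of complex III) and mt-Co1 (the catalytic subunit of complex IV). The other 6, mt-Nd3, mt-Nd4l, mt-Co2, mt-Co3, mt-Atp6 and mt-Atp8, held 0 reads in all 9 libraries, apart from 1 read of mt-Co2 in control replicate 3 and 1 read of mt-Co3 in control replicate 2. Reads of this library type are 50 bases long, so each gene's 50-base windows were searched in the transcripts of all other annotated genes (GENCODE M21, GRCm38, both strands). Of these windows, 100% were shared for mt-Co2, 99.9% for mt-Co3, 99.5% for mt-Atp6, 98.8% for mt-Nd4l and 98.0% for mt-Nd3. For mt-Atp8, which too was listed at 0, the share was 0.0%. The search covered annotated transcripts only, so it could not find a copy in unannotated sequence. Among the counted genes 0.0% was shared for mt-Nd1, mt-Nd6 and mt-Cytb, 7.6% for mt-Nd5, 8.2% for mt-Nd2, 51.1% for mt-Co1 and 62.2% for mt-Nd4. Whether reads with several matching places were dropped was not given in the sources used here, and the part of these copies in the zeros was not tested.

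The shared windows lay mainly in a run of unprocessed pseudogenes on the minus strand of chromosome 1. It comprised Gm28439 (chr1:24611535-24612410), Gm10222 (chr1:24612407-24612700), Gm28438 (chr1:24612775-24613119), Gm28437 (chr1:24613189-24613971), Gm10925 (chr1:24613974-24614651), Gm28661 (chr1:24614885-24615565) and Gm29216 (chr1:24615706-24616197). Of this run only Gm10222 was found among the genes listed in the counts, with 0 reads in all 9 libraries. The edges of this run fall inside mt-Nd4 and mt-Co1, both of which kept counts, and they are printed to show where the match to this run begins or ends. In mt-Co1 (chrM:5328-6872, plus strand) bases 1067 to 1545 matched Gm29216, which is 31.0% of its length. Further windows of mt-Co1 were shared with Gm13340 and Gm11512, so the capitals do not mark all of its shared sequence. In mt-Nd4 (chrM:10167-11544, plus strand) bases 1 to 876 matched Gm28439, which is 63.6%. Capitals mark the shared stretch in each 120-base excerpt, chrM:6334-6453 for mt-Co1 and chrM:10983-11102 for mt-Nd4, both on the plus strand of GRCm38.
mt-Co1: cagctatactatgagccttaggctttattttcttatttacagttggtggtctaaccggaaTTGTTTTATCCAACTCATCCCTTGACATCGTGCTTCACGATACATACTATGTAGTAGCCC
mt-Nd4: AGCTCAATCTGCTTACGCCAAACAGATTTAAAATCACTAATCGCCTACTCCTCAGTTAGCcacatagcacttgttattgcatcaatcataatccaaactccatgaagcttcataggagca

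The 7 counted mitochondrial genes did not pass the test in either knockdown, and nearly all their reads were missing from Sin3a knockdown replicate 3. The members summed to 4862, 5441 and 4887 reads in Fam60a knockdown replicates 1 to 3, to 4980, 4989 and 41 reads in the Sin3a knockdown replicates, and to 4911, 5397 and 4907 reads in the control replicates. Sin3a knockdown replicate 3 was low in the mitochondrial ribosomal RNAs as well, with 48 reads against 1304 to 1603 in the other libraries. As a share of all reads the members took 0.0743 ± 0.0031% in Fam60a knockdown cells and 0.0777 ± 0.0035% in control cells (SD, n = 3 each, exact two-sided permutation p = 0.3). The share was 0.0560 ± 0.0477% in Sin3a knockdown cells against that same control share (SD, n = 3 each, exact two-sided permutation p = 0.8). Without replicate 3 it was 0.0832% in Sin3a knockdown cells (n = 2, exact permutation p = 0.6). With 3 libraries against 3 the smallest p this test can give is 0.1.

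**Figure D1:**
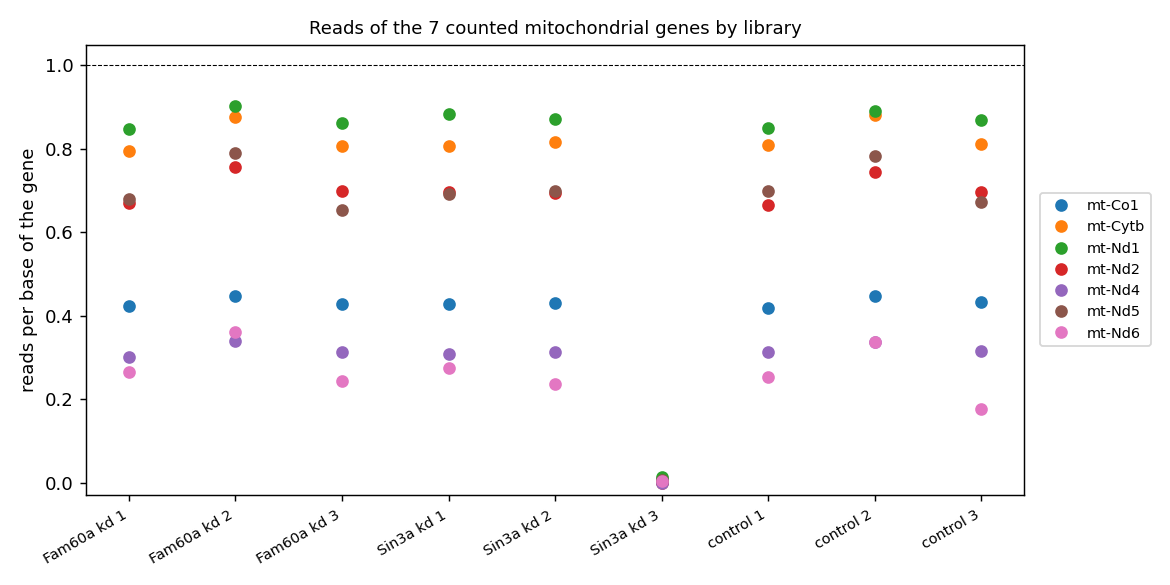
Reads per base (vertical axis) of the 7 counted mitochondrial genes, 1 colour each, in the 9 libraries (horizontal axis), with a dashed line at 1 read per base. In Sin3a knockdown replicate 3 all 7 lie near 0. Among the other libraries mt-Nd1 is highest and its points lie close together, while those of mt-Nd6 spread more widely.

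Duplicate reads had been removed before counting, which leaves at most about 1 read per position and strand. For mt-Nd1 the files held 811, 864 and 825 reads in Fam60a knockdown replicates, 845, 835 and 14 reads in Sin3a knockdown replicates and 813, 852 and 831 reads in control replicates, on 957 exon bases. Its highest density, 0.903 reads per base, was the highest of all members. The 8 libraries other than Sin3a knockdown replicate 3 thus lay close together although their totals ran from 5511453 to 7674887. For mt-Nd5, the longest of the 7, there were 1238, 1441 and 1193 reads in Fam60a knockdown replicates, 1261, 1277 and 10 in Sin3a knockdown replicates and 1273, 1429 and 1228 in control replicates. For mt-Nd6, transcribed from the opposite strand, there were 138, 188 and 127 reads in Fam60a knockdown replicates, 142, 123 and 2 in Sin3a knockdown replicates and 132, 175 and 91 in control replicates. The groups overlapped for both genes. A density as close to the ceiling as that of mt-Nd1 limits what the counts can say of mitochondrial RNA abundance. Of the mitochondrial genes 5 exceeded 0.4 reads per base in at least 1 library. A duplicate correction that inflates each count accordingly changed no mitochondrial call.

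On the log2 scale the 7 mitochondrial genes had a median fold change of -0.06 (range -0.09 to 0.11) in Fam60a knockdown against control cells. In Sin3a knockdown against control cells the median was -0.42 (range -0.44 to -0.36) over all libraries and 0.14 (range 0.10 to 0.17) without replicate 3, so the direction rested on that library. The typical SE of these genes was 0.80 in the Fam60a comparison with all 9 libraries and 0.09 without Sin3a knockdown replicate 3, because all groups share an estimate of the spread. In edgeR 0 of 7 passed an adjusted p of 0.05 in either comparison with control, with or without that library, and 0 had an unadjusted p under 0.05. DESeq2 called 0 as well. Fam60a against Sin3a knockdown cells gave a median of 0.36 over all libraries and -0.18 without Sin3a knockdown replicate 3, again with 0 calls by either tool. Without that library mt-Nd1 alone of the 7 had an unadjusted edgeR p under 0.05, beside 30.5% of all genes, and with all libraries 0 did. As the densest member, mt-Nd1 lay closest to the ceiling that duplicate removal sets, which limits what its difference can say of abundance. mt-Cytb shows the pattern: it measured 137, 129 and 146 CPM in Fam60a knockdown replicates and 141, 174 and 0.812 CPM in Sin3a knockdown replicates, against 151, 146 and 138 CPM in control replicates. mt-Nd2 and mt-Nd4 had 0 reads in Sin3a knockdown replicate 3, which allows up to 1.22 CPM, against 101 to 134 CPM and 60.1 to 80.2 CPM in the other 8 libraries. mt-Co1 held 5.28 CPM there and 88.5 to 124 CPM elsewhere.

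The share of reads on nuclear members overlapped between the groups, and Sin3a knockdown replicate 3 stood above the other libraries. The share was 0.525, 0.473 and 0.534% in Fam60a knockdown replicates, 0.507, 0.524 and 0.635% in Sin3a knockdown replicates and 0.532, 0.502 and 0.524% in control replicates. Means were 0.511 ± 0.033% in Fam60a knockdown and 0.519 ± 0.016% in control cells (SD, n = 3 each, exact two-sided permutation p = 0.9). In Sin3a knockdown cells the mean was 0.555 ± 0.070% (SD, n = 3, exact permutation p = 0.7), and without replicate 3 it was 0.515% (n = 2, exact permutation p = 0.8). Fam60a knockdown replicate 2, the deepest library, had the lowest nuclear share, and Sin3a knockdown replicate 3, the shallowest, had the highest. Duplicates were removed from the reads of nuclear members too. Of the 95, 51 exceeded 0.2 reads per base in at least 1 library, 14 exceeded 0.4, and the densest, Atp5a1, reached 0.579. Against the mean of the other 8 libraries, the 51 dense members had a median log2 deviation of 0.37 in Sin3a knockdown replicate 3 and the 39 sparser tested members one of 0.08. Split by exon GC content, the 45 members above the median (50.2 to 63.3%) deviated by a median of 0.59 in that library from the mean of the other Sin3a knockdown libraries, and the 45 below it (36.7 to 50.0%) by -0.04. With the duplicate correction the nuclear share was lowest in Fam60a knockdown replicate 2 (0.503%) and highest in Sin3a knockdown replicate 3 (0.662%). The median log2 fold change of nuclear members in Sin3a knockdown against control cells was 0.108 in the main fit. It was 0.139 with the GC correction and 0.139 with the duplicate correction. Apart from these corrections, the parts of density and GC content in the nuclear results were not tested.

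**Figure D2:**
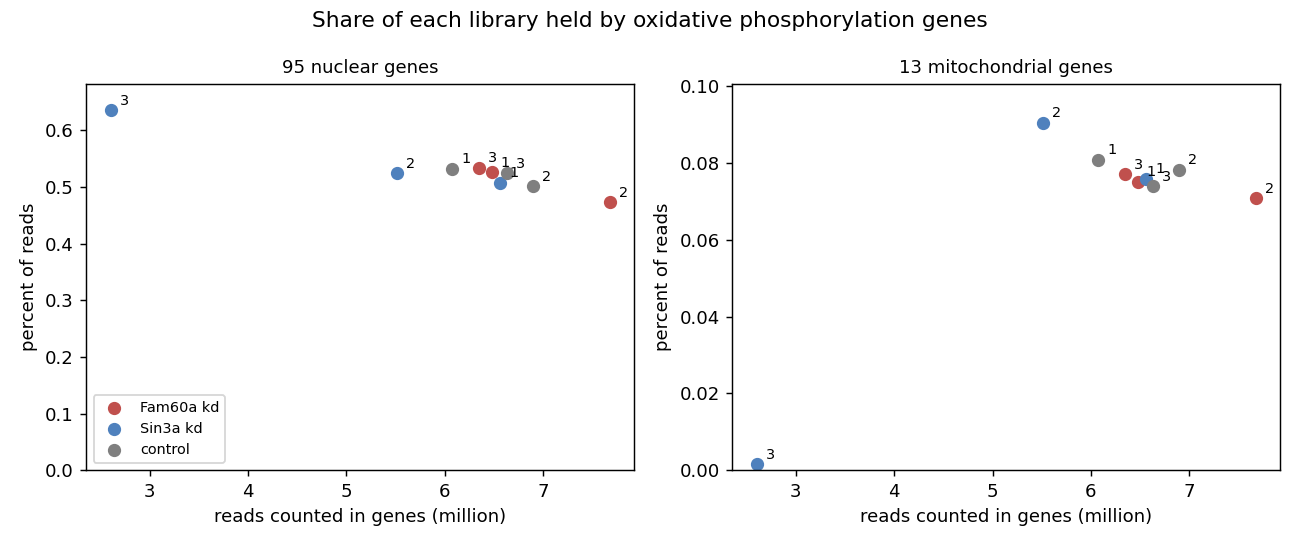
Percent of all reads in genes that fell on nuclear (left) and mitochondrial (right) members, vertical axis, against the total reads of the library, horizontal axis, with 1 point per library, coloured by group and numbered by replicate. The nuclear share runs from 0.473 to 0.635%, and Sin3a knockdown replicate 3 is highest in the left panel and lowest in the right one.

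Against this background, 0 of the 90 tested nuclear members passed the test in Fam60a knockdown against control cells. In edgeR 3 had an unadjusted p under 0.05 (Atp5g1, Cox4i2 and Ndufa4l2), beside 15.7% of all tested genes, and DESeq2 called 0. Over all 14465 genes tested, 1.49% were called higher and 1.44% lower in that comparison. Without Sin3a knockdown replicate 3, which also enters the shared spread, 9.16% were called higher and 7.77% lower of 14735 genes. The nuclear members called stayed at 0 in edgeR, with 6 at an unadjusted p under 0.05, beside 31.1% of all genes. The replicate numbers paired the libraries across groups. With the replicate number as a block and without that library, 7 nuclear members of 91 were called, 2 higher and 5 lower, beside 21.1% higher and 18.6% lower of all genes. Cox4i2 (log2 fold change 0.70 ± 0.18, adjusted p = 0.0089) and Ndufab1 (0.45 ± 0.12, adjusted p = 0.0093) were higher in Fam60a knockdown cells by that fit. Atp5g1, Atp5s, Ndufa4l2, Ndufa7 and Ndufv3 were lower, with log2 fold changes of -0.70, -0.38, -1.32, -0.22 and -0.19.

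In Sin3a knockdown against control cells 1 nuclear member of 90 fell, Ndufa4l2, and 0 rose. DESeq2 called 2, Ndufa4l2 lower and Ndufb6 higher, beside 17.3% of all genes. In edgeR 6 had an unadjusted p under 0.05, beside 25.9% of all genes. Over all genes 3.91% were called higher and 6.28% lower. Without replicate 3 the shares of all genes were 11.0% higher and 13.5% lower, and 5 nuclear members of 91 were called, Cox7b2 and Ndufaf2 higher and Ndufa4l2, Atp5g1 and Atp5g2 lower. Without that library and with the replicate block, 10 of 91 were called, 5 in each direction, beside 22.9% higher and 24.4% lower of all genes. Between the knockdowns, Fam60a against Sin3a, 1 of 90 was called higher (Cox4i2) and 0 lower, beside 2.18% and 0.878% of all genes. Without Sin3a knockdown replicate 3 these became 2 higher and 2 lower of 91, beside 8.49% and 6.21% of all genes. With the replicate block as well, 3 were higher and 4 lower, beside 19.4% and 16.7% of all genes. These shares of members lay below those of all genes.

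The size of the differences was small for most nuclear members. The median log2 fold change of the 90 was -0.04 in Fam60a knockdown against control cells, where that of all tested genes was -0.02, and 87 of the 90 lay within 0.5 of 0. In Sin3a knockdown against control cells the median was 0.11 over all libraries and 0.03 without replicate 3, beside -0.01 for all genes either way. Within 0.5 of 0 lay 81 of 90 members, and 85 of 91 without that library. Fam60a knockdown against Sin3a knockdown gave -0.13 with all libraries and -0.03 without that replicate. The 2 comparisons with control share the control libraries, so their values are given side by side and not correlated. Below, groups without overlap are named for single genes. With 3 libraries against 3, such a separation gives an exact two-sided permutation p of 0.1. Its share over all genes was not counted, so it is a description and not a test.

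**Figure D3:**
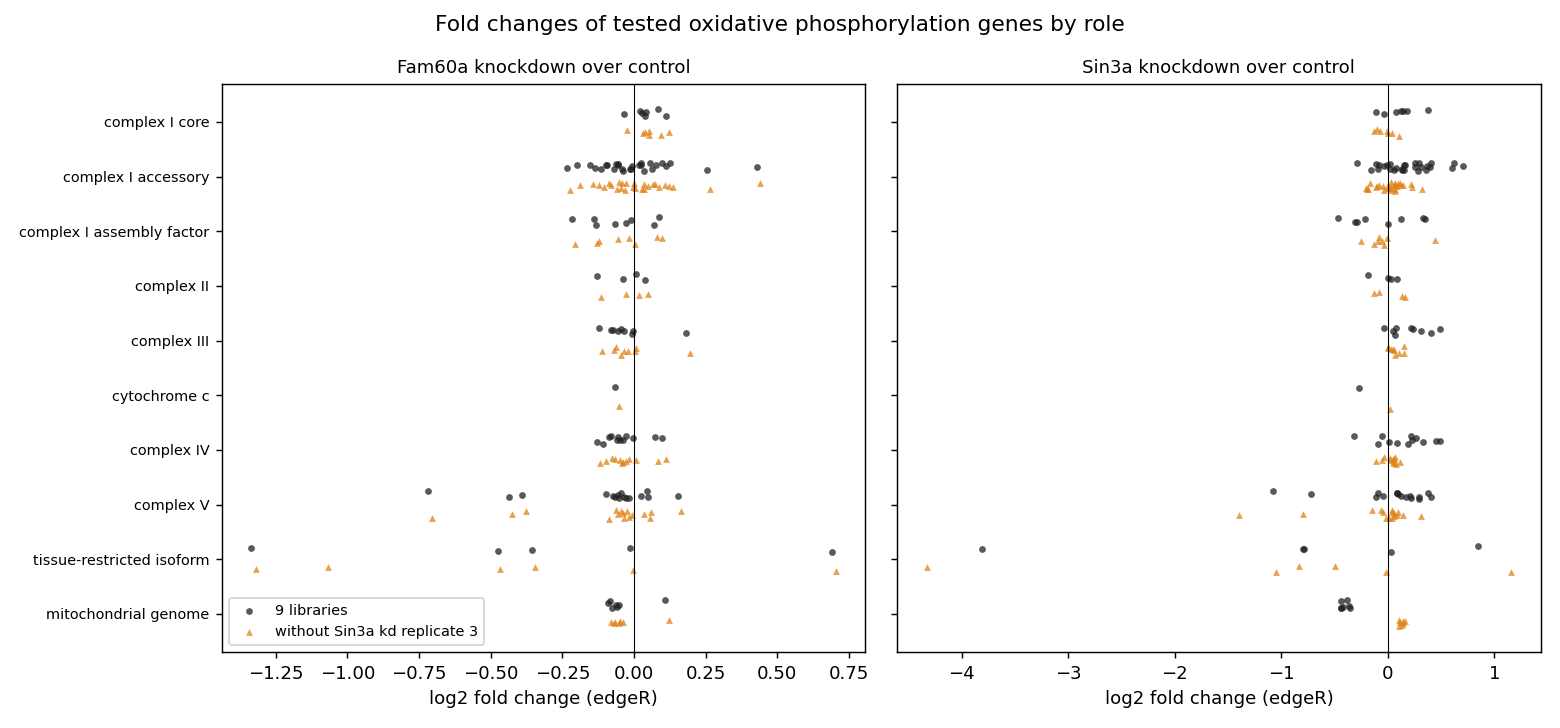
Log2 fold change over control (horizontal axis, with a different scale in each panel) of each tested member, 1 point per gene, by role, in Fam60a knockdown (left) and Sin3a knockdown cells (right). Dots use all 9 libraries and triangles leave out Sin3a knockdown replicate 3: most members of the complexes lie within 0.5 of 0, the isoforms spread widest, and the mitochondrial genes change side in the right panel.

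Complex I is the entry point for NADH electrons and the largest assembly of the chain. Its 7 nuclear core subunits summed to 698 ± 45 CPM in Fam60a knockdown, 760 ± 130 CPM in Sin3a knockdown and 684 ± 27 CPM in control cells (SD, n = 3 each). Ndufs3, which forms part of the peripheral arm, was the lowest of the core subunits per kilobase, at 15.4 RPKM (CPM per kilobase of exon) in control cells, and had log2 fold changes of 0.08 ± 0.15 in Fam60a knockdown and -0.04 ± 0.15 in Sin3a knockdown cells (SE). Other transcripts shared 17.9% of the windows of Ndufs3. Of the 7 core subunits 0 was called in any of the 3 comparisons by edgeR with all 9 libraries or without Sin3a knockdown replicate 3, and 0 had an unadjusted p under 0.05. DESeq2 called 0 too.

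Of the 29 accessory subunits of complex I 28 were tested. Their sum was 1207 ± 86.1 CPM in Fam60a knockdown, 1415 ± 303 CPM in Sin3a knockdown and 1218 ± 21.4 CPM in control cells (SD, n = 3 each). Sin3a knockdown replicate 3 alone reached 1764 CPM, and the mean of the other Sin3a knockdown replicates was 1241 CPM. Ndufb7, a subunit of the membrane arm, had the highest log2 fold change among them in Sin3a knockdown against control cells (0.70 ± 0.40, adjusted p = 0.305): it measured 47.7, 49.2 and 149 CPM in Sin3a knockdown replicates and 49.0, 48.0 and 52.3 CPM in control replicates. Without replicate 3 its log2 fold change was -0.04. Ndufa5 followed with 31.4, 31.8 and 63.8 CPM in Sin3a knockdown replicates and 28.3, 27.2 and 26.2 CPM in control replicates. Every Sin3a knockdown library lay above every control library, and its log2 fold change of 0.62 ± 0.27 (adjusted p = 0.193) became 0.21 without replicate 3. Ndufb6 rested less on that library. It measured 48.5, 49.4 and 57.7 CPM in Sin3a knockdown replicates, all above the 41.2, 38.3 and 38.1 CPM of the control replicates, with log2 fold changes of 0.40 ± 0.15 (adjusted p = 0.119) and, without replicate 3, 0.32 ± 0.11 (adjusted p = 0.0566). Fam60a knockdown replicates, at 41.4, 37.2 and 43.6 CPM, overlapped the controls. Of its windows 31.6% were shared with other transcripts. Ndufb6 was named after its values were seen.

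Ndufab1, the mitochondrial acyl carrier protein that is also a complex I subunit, measured 21, 29.3 and 33.4 CPM in Fam60a knockdown replicates, 16.3, 25.3 and 13.4 CPM in Sin3a knockdown replicates and 13, 26.0 and 22.9 CPM in control replicates. Each Fam60a knockdown library lay above the control of the same number, though the groups overlapped. Its log2 fold change was 0.43 ± 0.33 (edgeR adjusted p = 0.675). Ndufa2 was the highest accessory subunit per kilobase, at 69.5 RPKM in control cells, and Ndufb4 the lowest of those tested, at 2.28. Neither was called, and their log2 fold changes were -0.04 and 0.25 in Fam60a knockdown and 0.36 and -0.11 in Sin3a knockdown cells. Other transcripts shared 18.3% of the windows of Ndufb4. Ndufs5 did not pass the filter, with 0 to 7 reads per library, and 21.7% of its windows were shared with other transcripts.

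The assembly factors of complex I build its intermediates and leave the finished enzyme. The 8 Ndufaf members summed to 311 ± 21.6 CPM in Fam60a knockdown, 303 ± 18.7 CPM in Sin3a knockdown and 323 ± 10.3 CPM in control cells (SD, n = 3 each). Ndufaf2, an assembly factor that is a paralog of a complex I subunit, measured 29.3, 25 and 27.7 CPM in Fam60a knockdown replicates, 36.3, 33.4 and 28.0 CPM in Sin3a knockdown replicates and 26.7, 25.9 and 24.6 CPM in control replicates. The Sin3a knockdown libraries all lay above the controls. The log2 fold change was 0.35 ± 0.17 (adjusted p = 0.239) and passed without replicate 3, at 0.44 ± 0.13 (adjusted p = 0.032). Of its windows 64.1% were shared with other transcripts, whose part in the level was not tested. Ndufaf1, which acts on an early intermediate, was lower in all Sin3a knockdown libraries, with 41.8, 39.0 and 36.2 CPM against 54.6, 45.0 and 45.1 CPM in control replicates. These groups did not overlap either, and the log2 fold change was -0.30 ± 0.15 (edgeR adjusted p = 0.248), which passed with the replicate block and without replicate 3 (-0.28, adjusted p = 0.0213). Fam60a knockdown replicates had 52.0, 44.1 and 47.6 CPM of Ndufaf1, within the range of the controls save for replicate 2.

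Complex II is made wholly of nuclear subunits, and 0 of its 4 members was called with all 9 libraries. Sdha, the flavoprotein that oxidises succinate, measured 222, 201 and 221 CPM in Fam60a knockdown replicates, 201, 203 and 178 CPM in Sin3a knockdown replicates and 228, 212 and 222 CPM in control replicates. The Sin3a knockdown libraries lay below the controls, with a log2 fold change of -0.18 ± 0.10 (adjusted p = 0.279). Sdhb, the iron-sulfur subunit, lay between 68.1 and 75.1 CPM in Fam60a knockdown replicates and between 77.5 and 79.1 CPM in control replicates, without overlap, and its log2 fold change was -0.13 ± 0.12 (adjusted p = 0.787). Sdhb was at 72.6, 75.2 and 88.1 CPM in Sin3a knockdown replicates. The membrane anchors Sdhc and Sdhd had log2 fold changes of 0.01 and 0.04 in Fam60a knockdown and of 0.09 and 0.03 in Sin3a knockdown cells. The 4 genes were not called by edgeR, with 0 at an unadjusted p under 0.05, nor by DESeq2. With the replicate block and without Sin3a knockdown replicate 3, Sdhd passed in Sin3a knockdown cells (0.20 ± 0.07, adjusted p = 0.0419).

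Complex III passes electrons from coenzyme Q to cytochrome c. Cyc1, its cytochrome c1, measured 119, 105 and 126 CPM in Fam60a knockdown replicates, 123, 125 and 202 CPM in Sin3a knockdown replicates and 121, 116 and 123 CPM in control replicates. The log2 fold change was -0.05 ± 0.19 (adjusted p = 0.985) in Fam60a knockdown cells. In Sin3a knockdown cells it was 0.32 ± 0.19 (adjusted p = 0.336), and 0.05 without replicate 3. Uqcr11, a small subunit, had log2 fold changes of -0.08 ± 0.29 in Fam60a knockdown and 0.49 ± 0.29 in Sin3a knockdown cells, with 54.4 CPM in Sin3a knockdown replicate 3 and 22.1 to 26.6 CPM in the other 8 libraries. Per kilobase the members ran from Uqcrb at 13.9 RPKM to Uqcr10 at 69.3 RPKM in control cells, and 0 of 9 was called by edgeR or DESeq2 with all 9 libraries, with 0 at an unadjusted p under 0.05. Other transcripts shared 25.5% of the windows of Uqcrb. Uqcrc2, a core protein of the complex named after its values were seen, passed in Sin3a knockdown cells with the replicate block and without replicate 3 (0.18 ± 0.07, adjusted p = 0.0408). Cycs, the mobile cytochrome c that links complexes III and IV, measured 5.74, 6.03 and 4.90 CPM in Fam60a knockdown replicates, 5.49, 6.31 and 2.03 CPM in Sin3a knockdown replicates and 5.70, 5.06 and 6.70 CPM in control replicates. The groups overlapped. At 1.71 RPKM in control cells it stood below every tested member of complexes III and IV, and 26.1% of its windows were shared with other transcripts, whose part in the level was not tested.

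The 12 widely expressed subunits of complex IV summed to 496 ± 36.7 CPM in Fam60a knockdown, 583 ± 105 CPM in Sin3a knockdown and 513 ± 4.82 CPM in control cells (SD, n = 3 each). Cox4i1, the usual form of the regulatory subunit IV, measured 80.4, 71.1 and 85.2 CPM in Fam60a knockdown replicates, 80.5, 87.5 and 181 CPM in Sin3a knockdown replicates and 85.2, 81.7 and 79.9 CPM in control replicates. Its log2 fold change in Sin3a knockdown cells, 0.49 ± 0.28 (adjusted p = 0.310), became 0.03 without replicate 3. Cox6a1 followed the same course, with 101 CPM in that library, 42.2 to 54.2 CPM in the others and a log2 fold change of 0.45 that became 0.07. Cox7b was low instead, with 17.9 CPM in that library and 38.0 to 44.7 CPM in the others. In Fam60a knockdown cells the 12 log2 fold changes ran from -0.13 (Ndufa4) to 0.10, and 0 was called by edgeR or DESeq2, with 0 at an unadjusted p under 0.05. Cox7c was the lowest of them per kilobase, at 9.17 RPKM in control cells, against 70.1 for Cox6a1. Other transcripts shared 22.1% of the windows of Cox7c. The partners Cox6b1, Cox7a2, Cox8a and Ndufa4 had log2 fold changes of -0.04, -0.03, -0.09 and -0.13 in Fam60a knockdown and of 0.22, -0.06, 0.27 and -0.09 in Sin3a knockdown cells. Cox7a2l, which helps join complexes III and IV, had log2 fold changes of -0.05 and 0.19 in Fam60a and Sin3a knockdown cells.

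The members with the clearest differences were isoforms of complex IV subunits known from particular tissues or from low oxygen. Of 8 such genes 5 were tested, and the 2 members called by edgeR with all 9 libraries and no further correction, Ndufa4l2 and Cox4i2, belonged to this group. Ndufb6, which DESeq2 called, did not. Ndufa4l2, a paralog of the subunit Ndufa4 and a known target of the hypoxia-inducible factor HIF1 (ENSMUSG00000040280, chr10:127514967-127517154, plus strand), held 51, 50 and 16 reads in Fam60a knockdown replicates, 2, 6 and 5 reads in Sin3a knockdown replicates and 127, 73 and 74 reads in control replicates. These are 7.70, 6.42 and 2.53 CPM in Fam60a knockdown, 0.305, 1.11 and 2.03 CPM in Sin3a knockdown, and 20.7, 10.6 and 11 CPM in control cells. No Fam60a or Sin3a knockdown library reached the lowest control, and no Sin3a knockdown library reached the lowest Fam60a knockdown library. Its log2 fold change in Sin3a knockdown against control cells was -3.81 ± 0.66 (SE, edgeR adjusted p = 0.0101), which is 14.1-fold lower. It stayed called under all 19 alternatives, with log2 fold changes from -4.58 to -3.24. In Fam60a knockdown against control cells the log2 fold change was -1.34 ± 0.53 (adjusted p = 0.255), called under 1 of 19 alternatives, the replicate block without Sin3a knockdown replicate 3. Between the knockdowns it was 2.48 ± 0.67 (adjusted p = 0.0876) in favour of the Fam60a knockdown, and 3.01 ± 0.71 (adjusted p = 0.0246) without Sin3a knockdown replicate 3.

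Cox4i2 is the alternative form of subunit IV, known from lung and from low oxygen (ENSMUSG00000009876, chr2:152754173-152765037, plus strand). It measured 10.6, 9.75 and 7.43 CPM in Fam60a knockdown replicates, 3.05, 3.34 and 3.66 CPM in Sin3a knockdown replicates and 6.19, 6.22 and 4.77 CPM in control replicates. The groups did not overlap in any pairing: every Fam60a knockdown library lay above every control library, and every Sin3a knockdown library below. The direct comparison of the knockdowns gave a log2 fold change of 1.48 ± 0.27 (edgeR adjusted p = 0.0268), higher in the Fam60a knockdown. Against control cells neither knockdown passed alone, at 0.69 ± 0.26 (adjusted p = 0.213) for Fam60a and -0.78 ± 0.28 (adjusted p = 0.11) for Sin3a. The call between the knockdowns held under 11 of 19 alternatives, with log2 fold changes from 1.37 to 1.67. It was lost without any single library other than Fam60a knockdown replicate 3 and Sin3a knockdown replicate 3, and with the 6 libraries of the comparison alone (adjusted p up to 0.123). With the replicate block and without Sin3a knockdown replicate 3, Cox4i2 passed in all 3 comparisons. The direct comparison is the test of the difference between the knockdowns.

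Cox7b2, a paralog of Cox7b, measured 2.11, 0.898 and 1.26 CPM in Fam60a knockdown replicates, 4.57, 4.27 and 1.22 CPM in Sin3a knockdown replicates and 1.95, 1.88 and 2.09 CPM in control replicates. It was called without Sin3a knockdown replicate 3, which held 3 reads of it, higher in Sin3a knockdown than control cells (1.16 ± 0.37, adjusted p = 0.0466) and lower in Fam60a than Sin3a knockdown cells (-1.63 ± 0.38, adjusted p = 0.0217). With all libraries the values were 0.85 ± 0.47 (adjusted p = 0.295) and -1.32 ± 0.48 (adjusted p = 0.187). Cox7a1, the heart and muscle form of subunit VIIa, measured 8.01, 5.52 and 7.43 CPM in Fam60a knockdown replicates, 6.86, 5.76 and 2.03 CPM in Sin3a knockdown replicates and 8.80, 7.08 and 10.9 CPM in control replicates, with log2 fold changes of -0.35 ± 0.38 in Fam60a and -0.80 ± 0.40 in Sin3a knockdown cells (adjusted p = 0.836 and 0.244). Cox6b2, a form known from testis, was as steady as the common subunits, at 34.8 to 35.8 CPM in Fam60a knockdown, 32.2 to 38.6 CPM in Sin3a knockdown and 33.2 to 38.2 CPM in control cells. Muscle markers, all 6 of them detected, summed to 2.37 to 8.60 CPM in Fam60a knockdown, 2.74 to 12.6 CPM in Sin3a knockdown and 13.9 to 19.1 CPM in control cells. Male germ cell markers, 2 of 5 at 0 reads, summed to 1.90 to 2.95 CPM in Fam60a knockdown, 1.11 to 2.44 CPM in Sin3a knockdown and 6.79 to 9.09 CPM in control cells. The part of such cells in the isoform levels was not tested. Cox6a2, the muscle form of subunit VIa, had 2 reads in control replicate 3 and 0 in the other libraries, and Cox8b had 1 read in control replicate 2 and 0 elsewhere. Cox8c held 8, 4 and 5 reads in Fam60a knockdown replicates, 5, 5 and 0 in Sin3a knockdown replicates and 9, 14 and 12 in control replicates. It passed the filter without Sin3a knockdown replicate 3 and was then not called (log2 fold changes -1.07 and -1.05 in Fam60a and Sin3a knockdown cells, adjusted p = 0.109 and 0.139).

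**Figure D4:**
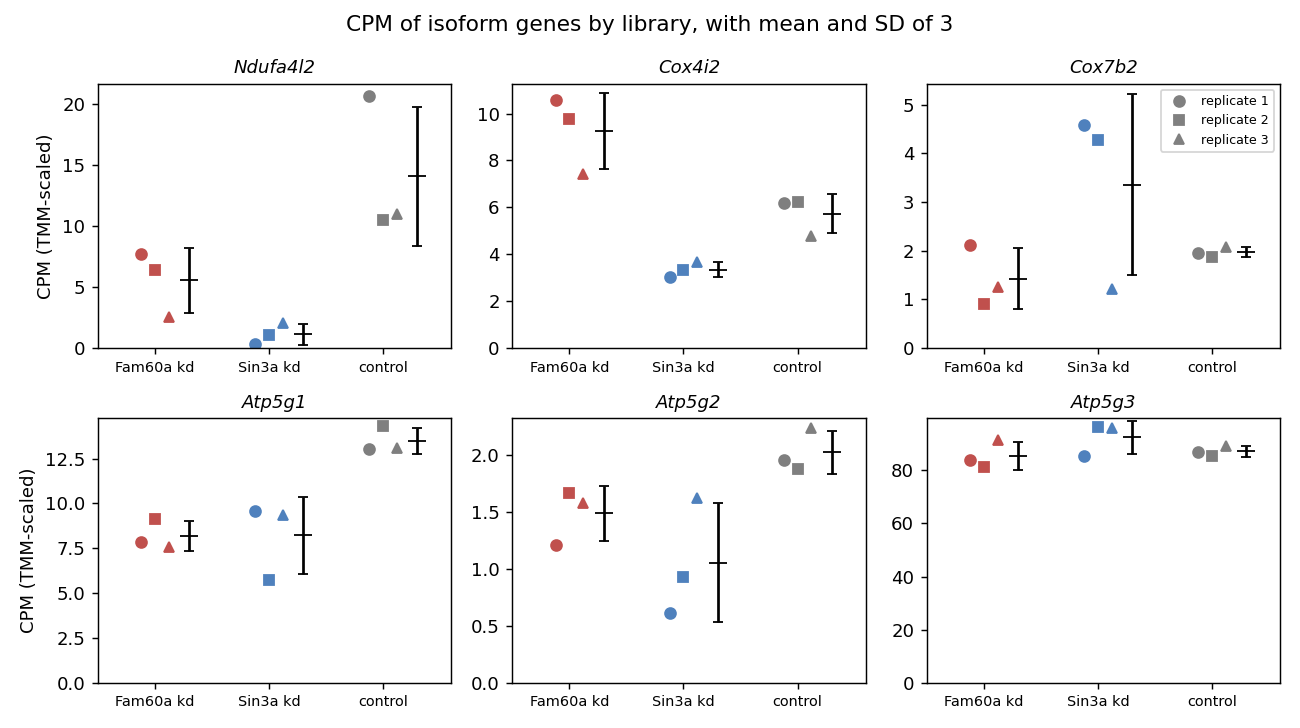
CPM (vertical axis, from 0) of Ndufa4l2, Cox4i2, Cox7b2 and the 3 subunit c genes in Fam60a knockdown, Sin3a knockdown and control cells, with 1 symbol per replicate and the mean and SD of 3 beside them. Ndufa4l2 and Atp5g1 are highest in control cells, Cox4i2 is highest in Fam60a knockdown cells, and Atp5g3 is level.

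Each isoform was also set against its common partner per kilobase. The length used joins all annotated exons of a gene, so the size of a share depends on the annotation. Cox4i2 made up 18.8 ± 3.6% of the summed level of Cox4i2 and Cox4i1 in Fam60a knockdown, 5.92 ± 1.81% in Sin3a knockdown and 12.0 ± 1.3% in control cells (SD, n = 3 each), and the libraries of the 3 groups did not overlap. Ndufa4l2 made up 15.0 ± 6.9% of the sum with Ndufa4 in Fam60a knockdown, 4.12 ± 4.09% in Sin3a knockdown and 28.6 ± 7.5% in control cells. Here the knockdowns overlapped each other and neither overlapped the controls, whose lowest share was 23.7%. Cox7b2 made up 6.99 ± 2.84% of the sum with Cox7b in Fam60a knockdown, 17.4 ± 4.0% in Sin3a knockdown and 9.49 ± 0.53% in control cells. The Sin3a knockdown shares, from 13.2 to 21.3%, all lay above the highest control share of 10.1%. The 13.2% was that of replicate 3, where the CPM of Cox7b2 lay below every control and Cox7b was low. Cox6b2 kept 33.4 ± 2.3% of the sum with Cox6b1 in Fam60a knockdown, 30.3 ± 2.8% in Sin3a knockdown and 33.0 ± 1.8% in control cells. These shares come from the same counts as the fold changes and are given as a description.

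Complex V, the ATP synthase, held 17 nuclear members, of which 16 were tested. They summed to 1139 ± 89.2 CPM in Fam60a knockdown, 1353 ± 270 CPM in Sin3a knockdown and 1174 ± 20.9 CPM in control cells (SD, n = 3 each). Atp5a1, the alpha subunit of the catalytic head, was the highest nuclear member per kilobase, at 85.8 RPKM in control cells. It measured 267, 229 and 284 CPM in Fam60a knockdown replicates, 266, 293 and 495 CPM in Sin3a knockdown replicates and 282, 255 and 271 CPM in control replicates. In Fam60a knockdown cells its log2 fold change was -0.05 ± 0.22 (adjusted p = 0.985). In Sin3a knockdown cells it was 0.38 ± 0.22 (adjusted p = 0.309), and 0.06 without replicate 3. Atp5l did not pass the filter, with 1 to 11 reads per library, and 10.0% of its windows were shared with other transcripts.

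The membrane ring of complex V is built from subunit c, for which Atp5g1, Atp5g2 and Atp5g3 all encode the same mature protein. Atp5g3 supplied most of the reads, at 83.8, 81.1 and 91.4 CPM in Fam60a knockdown replicates, 85.4, 96.2 and 95.9 CPM in Sin3a knockdown replicates and 87.0, 85.3 and 89.2 CPM in control replicates, and its log2 fold changes were -0.03 ± 0.11 and 0.08 ± 0.11. Atp5g1 measured 7.85, 9.11 and 7.59 CPM in Fam60a knockdown replicates, 9.60, 5.76 and 9.34 CPM in Sin3a knockdown replicates and 13, 14.3 and 13.1 CPM in control replicates. All 6 knockdown libraries lay below the 3 controls. The log2 fold change was -0.72 ± 0.25 in Fam60a and -0.72 ± 0.26 in Sin3a knockdown cells (edgeR adjusted p = 0.194 and 0.118), which is 1.64-fold and 1.65-fold lower. In Sin3a knockdown cells it passed without replicate 3 (-0.80 ± 0.26, adjusted p = 0.0497). In Fam60a knockdown cells it passed with the 6 libraries of that comparison alone (-0.71, adjusted p = 0.0482). Atp5g2 held 8, 13 and 10 reads in Fam60a knockdown replicates, 4, 5 and 4 in Sin3a knockdown replicates and 12, 13 and 15 in control replicates, with log2 fold changes of -0.44 ± 0.36 in Fam60a and -1.08 ± 0.41 in Sin3a knockdown cells (adjusted p = 0.707 and 0.131). Without replicate 3 the Sin3a knockdown value was -1.39 ± 0.42 (adjusted p = 0.0399). Of the windows of Atp5g2 38.3% were shared with other transcripts, against 11.1% for Atp5g1 and 0.0% for Atp5g3. The part of these shared windows in the levels was not tested. Per kilobase, Atp5g1 made up 4.01 ± 0.58% of the summed level of the 3 genes in Fam60a knockdown, 3.78 ± 1.11% in Sin3a knockdown and 6.26 ± 0.44% in control cells (SD, n = 3 each). Atp5g2 made up 2.13 ± 0.36% in Fam60a knockdown, 1.39 ± 0.62% in Sin3a knockdown and 2.75 ± 0.20% in control cells. The size of these shares, too, depends on the joined length of all annotated exons of each gene.

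The promoter windows of these 3 genes are shown because the genes encode the same protein and differed in their counts. Each window runs from 250 bases before to 50 bases after the RefSeq start (GRCm38.p6, minus strand), at chr11:96075582-96075881 for Atp5g1, chr15:102670998-102671297 for Atp5g2 and chr2:73911277-73911576 for Atp5g3. Capitals mark matches on either strand to the palindromic motif of NRF1, a regulator of many respiratory genes, or to ACGTG, a core of the hypoxia response element. The NRF1 motif is the longer capital stretch in the window of Atp5g2. Where the letters read CACGTG, the second motif matches on both strands.
Atp5g1: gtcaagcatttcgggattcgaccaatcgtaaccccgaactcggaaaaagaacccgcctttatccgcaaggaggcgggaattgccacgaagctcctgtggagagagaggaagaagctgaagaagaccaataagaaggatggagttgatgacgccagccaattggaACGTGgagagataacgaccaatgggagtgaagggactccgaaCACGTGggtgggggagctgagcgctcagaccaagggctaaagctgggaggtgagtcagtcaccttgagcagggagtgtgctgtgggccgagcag
Atp5g2: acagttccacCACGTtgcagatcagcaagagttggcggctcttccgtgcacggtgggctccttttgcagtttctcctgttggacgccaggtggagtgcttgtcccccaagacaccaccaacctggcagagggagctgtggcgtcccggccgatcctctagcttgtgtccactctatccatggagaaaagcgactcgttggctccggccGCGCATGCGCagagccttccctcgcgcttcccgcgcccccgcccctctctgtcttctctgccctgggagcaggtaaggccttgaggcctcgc
Atp5g3: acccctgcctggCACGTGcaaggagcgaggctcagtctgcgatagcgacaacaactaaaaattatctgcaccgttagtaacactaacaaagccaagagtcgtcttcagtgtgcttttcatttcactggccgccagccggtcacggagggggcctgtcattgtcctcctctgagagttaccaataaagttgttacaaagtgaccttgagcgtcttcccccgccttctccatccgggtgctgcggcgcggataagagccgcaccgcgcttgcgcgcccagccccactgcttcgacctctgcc

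The NRF1 letters lay in the window of Atp5g2 and not in those of Atp5g1 and Atp5g3. Of the 95 nuclear members 77 matched a RefSeq window, and 7 of these (9.09%) held the NRF1 letters, against 0.977% of the windows of 27025 genes. CCGGAAG, the core of sites for ETS factors such as GABP, was in 22.1% of the members' windows and in 9.12% of all. AAGATGGC, a core of YY1 sites, was in 13% and 2.88%. ACGTG was in 26.0% and 19.7%, and GCGTG, the other form of the hypoxia core, in 54.5% and 32.5%. Ndufa4l2 and Cox4i2 matched no RefSeq window, so these shares do not cover them. Both strands were searched, only the first listed window of each gene was used, and matches of different motifs may overlap. The 27025 genes were not filtered by gene type, whereas the members are all protein-coding, so the sets compared are unlike. These are counts of letters and not of binding.

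Atp5s, known as coupling factor B, was added after its values were seen. It measured 14.5, 13.9 and 12.6 CPM in Fam60a knockdown replicates, 22.0, 22.5 and 6.50 CPM in Sin3a knockdown replicates and 18.2, 19.1 and 16.4 CPM in control replicates. Each Fam60a knockdown library lay below each control library. That comparison did not pass in edgeR with all 9 libraries and passed under 1 of 19 alternatives. Its log2 fold change between Fam60a and Sin3a knockdown cells was -0.34 ± 0.38 (adjusted p = 0.665) with all libraries and -0.69 ± 0.16 (adjusted p = 0.0206) without Sin3a knockdown replicate 3.

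Genes that serve the pathway without being members were read out of the same fit in 7 lists. In Fam60a knockdown against control cells edgeR called 0 of the 109 tested genes. An unadjusted p under 0.05 was found for 3 of them, beside 15.7% of all genes. DESeq2 called 1, beside 8.16% of all genes. In Sin3a knockdown against control cells edgeR called 1 gene, Gabpb2, which encodes a beta subunit of GABP and is among 12 tested regulators of mitochondrial genes. It fell by 0.54 on the log2 scale (SE 0.11, adjusted p = 0.0166), with 167, 153 and 131 CPM in Sin3a knockdown replicates and 219, 218 and 219 CPM in control replicates. DESeq2 called 9 of the 109, 7 of them higher, beside the 17.3% of all genes. Between the knockdowns edgeR called 1 gene, the coactivator Ppargc1b (PGC-1 beta), lower in Fam60a than Sin3a knockdown cells by a log2 fold change of -1.37 ± 0.26 (adjusted p = 0.03). Its level was 14, 14.6 and 16.6 CPM in Fam60a knockdown replicates and 35.7, 27.3 and 54.8 CPM in Sin3a knockdown replicates, and 19.2 to 22.2 CPM in control cells.

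The other 6 lists had 0 calls by edgeR with all libraries: 9 further assembly factors of complex I, 13 of complexes II, III and V, 24 of complex IV, 18 genes of mitochondrial DNA upkeep and transcription, 13 of coenzyme Q synthesis and 20 of the tricarboxylic acid cycle and pyruvate entry. Of these 97 genes 3, 15 and 9 had an unadjusted p under 0.05 in the Fam60a, Sin3a and between-knockdown comparisons. Of all tested genes 15.7%, 25.9% and 18.1% did. DESeq2 called 1, 6 and 2 of the 97. Between the knockdowns DESeq2 called 9.21% of all genes. The mitochondrial topoisomerase Top1mt had in Sin3a knockdown against control cells a log2 fold change of 1.32 ± 0.38 (edgeR adjusted p = 0.0619), Mpc2, a subunit of the pyruvate carrier, one of 0.78 ± 0.23 (adjusted p = 0.0642), and Coq5, a coenzyme Q methyltransferase, one of 0.57 ± 0.17 (adjusted p = 0.0628). The tricarboxylic acid cycle enzyme Ogdh had 0.28 ± 0.09 (adjusted p = 0.0765), the complex IV assembly factors Cox20 and Cmc2 had -0.70 and 0.56, the complex I assembly factors Timmdc1 and Acad9 had 0.62 and 0.37, and the transcription elongation factor Tefm had -0.61. Between Fam60a and Sin3a knockdown cells, Sdhaf1, which assists complex II, had -0.70 ± 0.17 (adjusted p = 0.0609), the complex III factor Ttc19 had -0.35 and Coq10a, a coenzyme Q binding protein, had 0.70. Without Sin3a knockdown replicate 3, edgeR called 4, 13 and 11 of the 109 genes in the Fam60a, Sin3a and between-knockdown comparisons, beside 16.9%, 24.5% and 14.7% of all genes. Of the 20 genes of the tricarboxylic acid cycle list 4 then rose in Sin3a knockdown cells (Ogdh, Dld, Mpc2 and Idh2, log2 fold changes 0.28, 0.26, 0.52 and 0.20). So did 3 of 13 genes of coenzyme Q synthesis (Coq3, Coq5 and Coq8b, 0.35, 0.39 and 0.41). Over all the lists 11 of the 109 genes were called higher and 2 lower in that fit. Of all genes 11.0% were called higher and 13.5% lower.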

How the data were processed

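Deposited values were whole-number read counts per gene, not normalised. Reads were single-end, 50 bases long, from a stranded TruSeq library of total RNA, per the labels' protocols. STAR 2.4.0j, Picard, featureCounts and Subread are named in the submitters' processing notes, and duplicates were removed before counting, per the file headers, so abundant transcripts are compressed. The genome build and annotation used for counting are not given in the sources used here. The libraries whose titles name neither hairpin target were taken as the scrambled controls.

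Counts were tested with edgeR 4.0.16 (filterByExpr, TMM, robust quasi-likelihood, all 9 libraries in 1 model, R 4.3.3) and Benjamini-Hochberg adjustment over 14465 genes, with 0.05 as the threshold. An SE is the fold change divided by the square root of F. CPM are TMM-scaled, and RPKM use exon lengths of GENCODE M21 (GRCm38), which matched 32937 of 37990 gene IDs. A length joins all annotated exons of a gene, so ranks per kilobase depend on the annotation. Shares of reads were compared with exact permutation tests in scipy 1.17.1. Alternatives comprised DESeq2 1.42.0, other scaling, no filter, a GC correction (20 bins), a duplicate correction, a replicate block, the 6 libraries of a comparison and leaving out each library. A duplicate correction and a block without Sin3a knockdown replicate 3 were chosen after seeing the data. Replicate numbers paired the libraries: residuals of all 9 same-number pairs correlated at 0.178 to 0.622, and of other pairs at -0.448 to 0.113, though the labels do not name a shared handling. The fitting script was tested on simulated data.

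Members and lists were chosen with earlier results of these data known. Named were the mitochondrial genes, called members, the 3 largest rises and falls per comparison, Sdha to Sdhd, Cyc1, Cycs, the isoforms with their partners, the highest and lowest member of each role, and called or smallest-p genes of the other lists. Not every gene this rule selects is reported here. Promoter windows are from RefSeq (GRCm38.p6).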

Additional observations from a re-analysis of the deposited data

How the results depend on the processing

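With 2 to 3 libraries per group and Sin3a knockdown replicate 3 in the shared spread, counts of calls moved widely. Of the gene-level values under the alternatives, 2198 kept their side of the threshold and direction, 37 newly passed, 8 no longer passed and 207 moved by more than the spread. The cause was not tested. Over all genes, calls in Fam60a knockdown against control cells numbered 423, and 1181 with DESeq2, 887 with the replicate block, 700 with the GC correction, 1695 with both corrections, 1827 with the 6 libraries alone, 11 to 2495 with 1 library left out, 2563 with the duplicate correction in 8 libraries and 5842 with the block in 8 libraries. For Sin3a knockdown against control cells they numbered 1475, and 2507 with DESeq2, 3293 with GC correction and block, 739 with 6 libraries, 521 to 3606 with 1 library left out, 3665 with the duplicate correction in 8 libraries and 6975 with the block in 8. Fam60a against Sin3a knockdown cells gave 443, and 1332 with DESeq2, 672 with the block, 797 with the GC correction, 1549 with both, 0 with 6 libraries, 48 to 2166 with 1 library left out, 2239 with the duplicate correction in 8 and 5321 with the block in 8.

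Nuclear members called in Fam60a knockdown against control cells numbered 0, 1 with 6 libraries and 7 with the replicate block in 8. In Sin3a knockdown cells it was 1, with 2 by DESeq2, 2 with GC correction and block, 1 to 5 with 1 library left out, 6 with the duplicate correction in 8 and 10 with the block in 8. Between the knockdowns it was 1, with 2 by DESeq2, 2 with the GC correction, 3 with GC correction and block, 0 with 6 libraries, 0 to 4 with 1 library left out, 4 with the duplicate correction in 8 and 7 with the block in 8. The replicate block with all 9 libraries changed no member's call. The mitochondrial members had 0 calls under every alternative run. Their median log2 fold change between the knockdowns, 0.36, was 0.38 with DESeq2, 0.66 with the block, 0.39 with the GC correction, 0.52 with both, 0.39 with the duplicate correction, 0.38 with 6 libraries and -0.18 to 0.88 with 1 library left out, and in 8 libraries -0.17 with the duplicate correction and -0.19 with the block. That of the nuclear members, -0.13, was -0.033 without Sin3a knockdown replicate 3 and -0.028 with the duplicate correction as well. Differences from control in the share of reads changed sign when 1 library was left out in 3 cases. The nuclear share in Fam60a knockdown cells ran from -0.0197 to 0.0105 percentage points (positive without Fam60a knockdown replicate 2). In Sin3a knockdown cells the nuclear share ran from -0.00357 to 0.0604 and the mitochondrial share from -0.039 to 0.0055, both turning without Sin3a knockdown replicate 3. Members below 0.385 to 1.22 CPM could not be told from 0 at this depth.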
